A study of Arabidopsis thaliana with 87 samples.

Results

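Poly(A)+ RNA of Arabidopsis thaliana seedlings that had spent 1 h back in air after 2 h of hypoxia (1R) was compared with that of seedlings harvested at the end of the 2 h (2HS). Each group held 3 mRNA-seq libraries, 6 of the 87 samples of the series. Genes of chromosomes 1 to 5 entered when their mean over all 5 poly(A)+ groups was at least 1 RPKM (reads per kilobase of gene, scaled to the reads of the library). This left 12988 of the 37746 genes, 12702 of them protein-coding. The log2 ratio of RPKM + 1 between 1R and 2HS was taken for each gene and centred on the median gene, so every change below is relative to that gene.

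Seedlings were 7 days old, grew in long days on sucrose medium, and carried pUBQ10:NTF and pACT2:BirA, a pair of transgenes under broadly active promoters that tag and biotinylate nuclei. All groups, controls included, carried these transgenes. The 2HS seedlings were sealed in a chamber flushed with argon from ZT 16, the end of the light period, for 2 h. The 1R seedlings had the same treatment and then 1 h of reoxygenation. A control in air, 2NS, was harvested after the same 2 h of darkness and is set beside each value. Seedlings after 9 h of hypoxia (9HS) or 9 h of darkness in air (9NS), with 3 libraries each, were not compared here. They entered only the gene filter and the estimate of spread behind the tests. The 1R seedlings were harvested 1 h later in the night than 2HS and 2NS, and with no control of that hour, return of oxygen and the later hour cannot be told apart. The labels do not say whether reoxygenation was in light or darkness.

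Plants respire with oxygen, and when it runs short they break down sugar by fermentation to keep making ATP. The switch is set by group VII ERF transcription factors. In air, plant cysteine oxidases (PCOs) use oxygen to oxidise the cysteine next to the first methionine of these factors, which marks them for destruction by the N-degron pathway. Without oxygen they persist and turn on a core set of hypoxia genes. The return of oxygen restarts respiration in cells with stalled electron transport. Reactive oxygen, chaperone genes and water-stress hormones are known parts of the reoxygenation response.

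The deposited values were means over 3 libraries. Whole reads in each library were recovered from the digits of those means for 10427 of the 12988 genes, called tested genes here, and compared with limma. The other 2561 genes, mostly abundant ones, are given as the authors' means, without error or test. In at least 1 of the groups 1537 of them were not searched, since more than 4 solutions were expected by arithmetic alone, and 1012 were searched and had several solutions; 2 had none and 10 had no gene length or value. Split into 5 equal classes by level, 99.9% of the lowest class were tested and 20.1% of the highest. Library totals were 12.21, 13.93 and 15.30 M reads in 2HS and 10.85, 15.22 and 20.96 M in 1R, and values per library follow in that order. The listed genes held 34.2% of the total reads in 2HS, 55.4% in 1R, 25.2% in 2NS, 64.9% in 9NS and 10.5% in 9HS. The median gene lay 0.61 higher on the log2 scale in 1R than in 2HS before centring. In 2HS the library of 12.21 M reads stood lowest for most genes, and the highest library of the group lay 2.33 times above it at the median gene, against 1.57 times within 1R. After each library was centred, 438 tested genes of at least 10 RPKM in both groups had a median range between libraries of 0.30 in 2HS and 0.27 in 1R on the log2 scale. Whether libraries came from separate cultures is not stated, so p-values measure the spread between these samples, which may be technical.

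In all, 795 tested genes rose (7.62% of tested genes) and 764 fell (7.33%) in 1R against 2HS, by limma with Benjamini-Hochberg adjustment at 0.05. Of these, 216 rose and 172 fell at least 2-fold. Before centring, genes called lower had a median of 2.94 RPKM in 2HS and 2.58 RPKM in 1R. Genes called higher had 1.99 and 7.175 RPKM, and all tested genes 2.29 and 4.07 RPKM, in the same order. A fall is thus relative to the median gene and need not be a large drop in RPKM. In the authors' means, 344 of the 12988 genes were at least 2-fold higher (2.65%) and 263 at least 2-fold lower (2.02%), of which 116 and 68 could not be tested. Genes at least 2-fold higher had a median of 2.23 RPKM in 2HS and 14.2 RPKM in 1R, with 2.81 RPKM in the 2NS control. Those at least 2-fold lower had a median of 10.8 RPKM in 2HS, 4.59 RPKM in 1R and 2.25 RPKM in 2NS. The order of 2HS and 1R follows from choosing the sets by that ratio, and the choice also affects where 2HS stands against 2NS. Both sets were short, with median gene lengths of 1624 and 1645 bases against 2254 bases over all genes past the filter. Without centring, of groups and of libraries, 287 genes rose and 19 fell. With groups centred but not libraries, an alternative chosen after seeing the data, 52 rose and 40 fell. Both settings leave differences in level between libraries in the spread. Whether a call lost without centring rests on the shift of the median gene or on that spread was not tested. With centring, a gene near 0 RPKM in both groups receives a negative change by construction. Calls lost without centring, or when 1 of the 6 libraries was left out in turn, are given beside each list, with libraries named by their totals. Counts of calls in every list are to be read beside 7.62% of all tested genes rising and 7.33% falling. Overlap of libraries is judged in RPKM before centring. There the median gene lay 0.61 higher in 1R than in 2HS on the log2 scale. The share of all tested genes without overlap is not given here. Genes named for the largest changes were picked by that change, so lack of overlap adds no support.

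**Figure D1:**
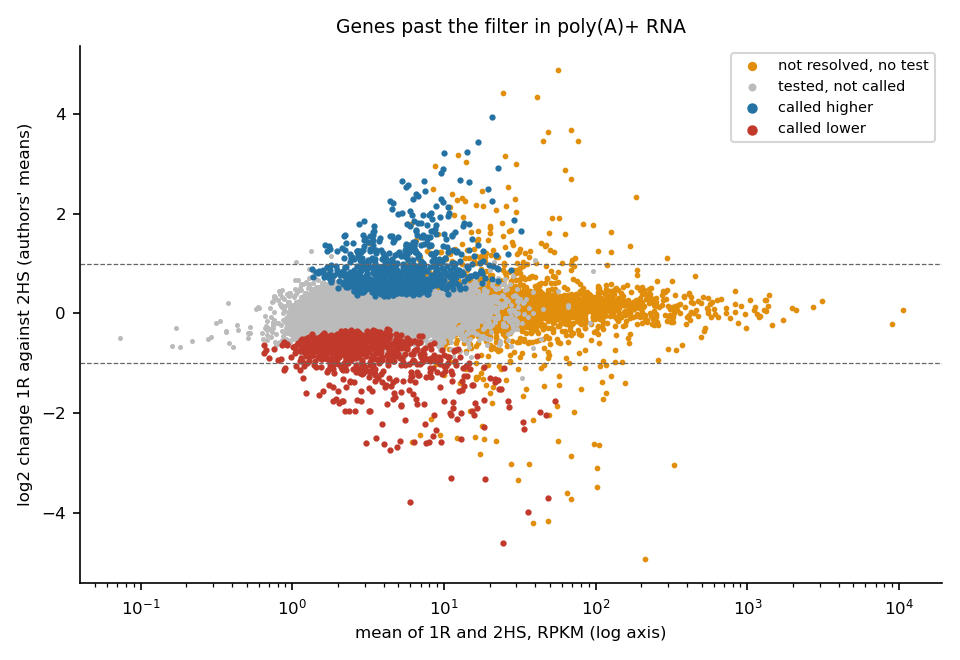
Centred log2 change of 1R against 2HS from the deposited means, against the mean RPKM of both groups on a log axis, 1 point per gene past the filter. Blue points rose and red points fell by limma, grey points were tested and not called, and orange points, concentrated at high RPKM, could not be tested. Dashed lines mark a 2-fold change.

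Core hypoxia genes had the lowest median of the 20 gene lists. Of the core hypoxia genes, a list of 52 known to rise under low oxygen in most Arabidopsis cell types, 46 passed the filter and 19 could be tested; 15 fell, none rose and 4 were not called, against 7.33% of all tested genes falling. Another 18 of the 27 untested members were at least 2-fold lower in the authors' means. The list's median change was -1.76, against 0 for all genes by the centring; without centring it was -1.15 and 4 members fell. AT4G10265, a gene of the wound-responsive protein family, had 20.9, 71.8 and 47.4 RPKM in the 2HS libraries and 0.977, 3.09 and 1.88 RPKM in 1R. Every 1R library lay below every 2HS library, and the change was -4.58 ± 0.28 (SE; limma, adjusted p = 4.59e-09), the largest fall among tested genes.

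AT4G24110, a core hypoxia gene of unknown function, went from 34.9, 91.3 and 70.6 RPKM to 3.62, 7.75 and 4.95 RPKM, without overlap (-4.0 ± 0.29, limma adjusted p = 2.24e-08). AT5G66985, likewise of unknown function, went from 29.2, 134 and 99.4 RPKM to 6.59, 13.5 and 7.98 RPKM (-3.58 ± 0.31, limma adjusted p = 1.15e-07). SRO4, of the family of the stress regulator RCD1, had 3.75, 19.8 and 11 RPKM in 2HS and 0.351, 0.417 and 0.424 RPKM in 1R (-3.60 ± 0.32, limma adjusted p = 1.28e-07). For these 3 genes no 1R library reached the lowest 2HS library. AUF2, an F-box gene linked to auxin transport, fell as well, from 6.12, 33.8 and 19.8 RPKM to 1.4, 3.67 and 1.59 RPKM (-3.17 ± 0.25, limma adjusted p = 4.83e-08). The remaining genes among the 12 largest tested falls were AT5G42200 (-3.22), AT2G29870 (-2.65), AT2G36690 (-2.64), AT3G14260 (-2.56), AT5G10210 (-2.56), AT1G24580 (-2.54) and GAT1_2.1 (-2.53), and in none did the 1R libraries overlap those of 2HS.

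The most abundant hypoxia genes could not be tested in 2HS, yet their 1R and 2NS libraries could be compared. LBD41, a LOB-domain transcription factor gene, stood at 5.67 RPKM in 2NS, 401 RPKM in 2HS and 19.2 RPKM in 1R, a change of -4.93 between the 1R and 2HS means. Its 1R libraries had 13.9, 25.0 and 18.6 RPKM and its 2NS libraries 3.61, 7.65 and 5.75 RPKM, so that 1R still lay above the control (0.74, limma adjusted p = 0.0174). HRA1, a trihelix factor that restrains the group VII factor RAP2.12, had means of 1.62, 71.9 and 5.07 RPKM in 2NS, 2HS and 1R, a change of -4.20 between 1R and 2HS. Against 2NS it did not pass the test (0.35, limma adjusted p = 0.210). CML38, a calmodulin-like gene of cytosolic stress granules, had means of 1.56, 116 and 13.7 RPKM in the same order (-3.60), and 1R remained above 2NS (1.62, limma adjusted p = 6.96e-04). Other untested genes among the 8 largest falls in the means were AT3G23170 (-4.17), DJC66 (-3.72), a J-domain protein gene, AT1G33055 (-3.49), PCO1 (-3.35) and AT4G32480 (-3.10).

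**Figure D2:**
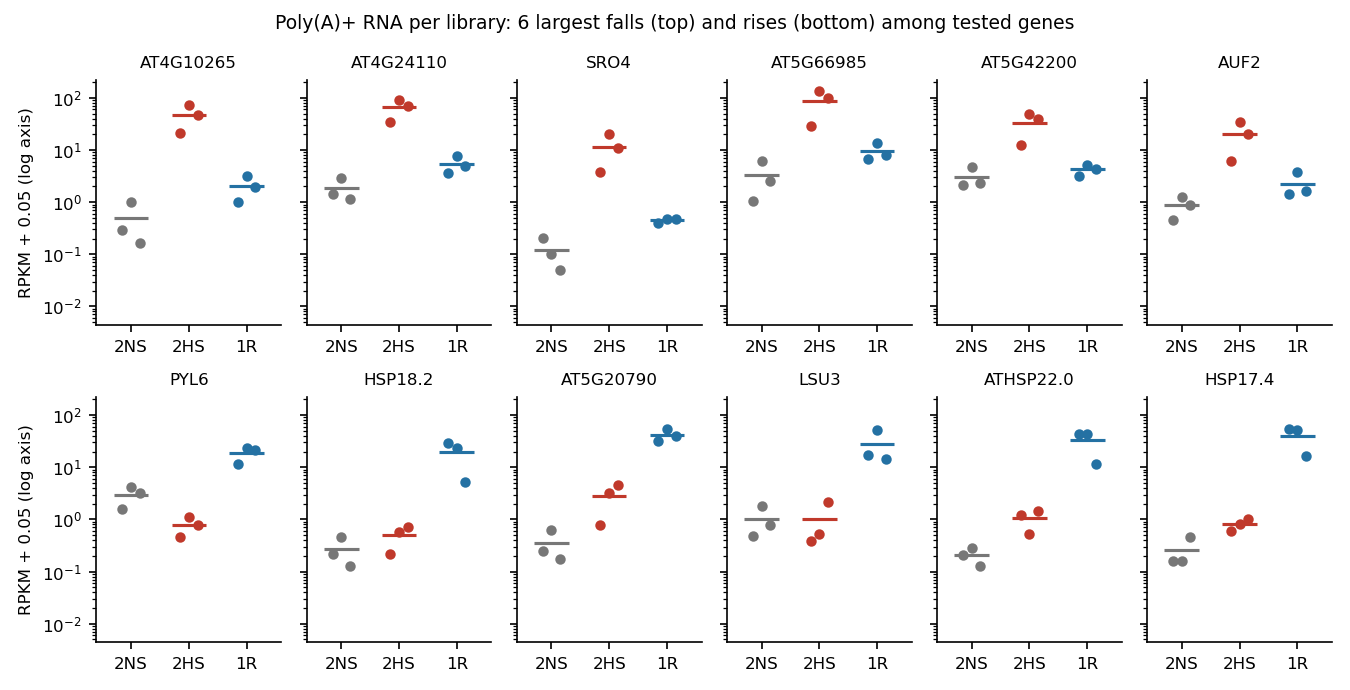
RPKM + 0.05 on a log axis in each poly(A)+ library of 2NS, 2HS and 1R (3 points a group, bar at the mean), for the 6 largest falls (top row) and the 6 largest rises (bottom row) among tested genes. In all 12 genes the 1R points lie apart from the 2HS points; AT4G10265 drops from at least 20.9 RPKM to at most 3.09 RPKM and HSP17.4 climbs from at most 0.959 RPKM to at least 16.2 RPKM.

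The oxygen sensors and their targets did not move together. The hypoxia-induced oxidase genes PCO1 and PCO2 stood at 54.4 and 47.5 RPKM in 2HS and at 7.28 and 8.06 RPKM in 1R, changes of -3.35 and -3.03 in the authors' means. Both remained above 2NS by limma (PCO1 0.73, adjusted p = 0.0314; PCO2 1.05, adjusted p = 7.07e-04). The oxidase genes known to be present in air were not called: PCO3 changed by -0.17 (limma adjusted p = 0.438), PCO4 by -0.14 (0.669) and PCO5 by 0.21 (0.319). The 3 group VII factor genes known as constitutive, RAP2.12, RAP2.2 and RAP2.3, lay at 43.4, 57.8 and 100 RPKM in 1R and could not be tested (changes in the means 0.17, 0.57 and 0.39).

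HRE1 and HRE2, the group VII factor genes that are themselves induced by hypoxia, differed in their values. HRE1 had 6.56, 29.6 and 24.4 RPKM in the 2HS libraries and 7.53, 14.8 and 10.3 RPKM in 1R. The RPKM values overlapped through the low 2HS library of 12.21 M reads, and after centring HRE1 fell (-1.33 ± 0.19, limma adjusted p = 5.02e-05) while staying above 2NS (1.57, adjusted p = 1.82e-05). Without that library the fall was -1.59. HRE2 had 5.74, 28.3 and 19.3 RPKM in 2HS and 18.6, 40.0 and 35.2 RPKM in 1R. Its groups overlapped and its change against 2HS did not pass (0.27 ± 0.28, limma adjusted p = 0.565). Against the 0.791, 1.56 and 1.09 RPKM of the 2NS libraries HRE2 was 2.99 higher (limma adjusted p = 9.97e-07), with no overlap.

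Fermentation genes split by enzyme. PDC1, pyruvate decarboxylase of the ethanol pathway, went from 157 RPKM in 2HS to 38.2 RPKM in 1R in the authors' means (-2.63), against 2.115 RPKM in 2NS. PDC2 went from 78.6 to 32.8 RPKM (-1.85), and SUS4, a sucrose synthase that opens sucrose for glycolysis, from 15.2 to 3.55 RPKM (-2.45). ADH1, alcohol dehydrogenase of the next step, had 129 RPKM in 2HS and 220 RPKM in 1R, which is a change of 0.15 once centred. HB1, a hemoglobin that scavenges nitric oxide, was likewise not lower (90.0 and 191 RPKM, 0.46), nor was AT3G03270, a universal stress protein gene (22 and 57.3 RPKM, 0.73). These genes were among 9 untested core hypoxia genes within 2-fold of 2HS.

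Among 25 fermentation and glycolysis enzymes past the filter, 9 were tested. The phosphofructokinase gene PFK6 fell (-1.44 ± 0.22, limma adjusted p = 1.04e-04), as did the hexokinase gene HXK2 (-0.60, adjusted p = 0.00868), whereas PFK7 rose (0.46, adjusted p = 0.00833); 6 were not called. HXK2 lost the call without the 2HS library of 15.30 M reads (adjusted p = 0.0662) and turns to 0.08 without centring, where none of the 9 was called. Among untested members, GAPC1, glyceraldehyde-phosphate dehydrogenase, stood at 69.1 RPKM in 2HS and 141 RPKM in 1R (0.40) and iPGAM2, phosphoglycerate mutase, at 15.9 and 47.8 RPKM (0.91). The median of the list was 0.12.

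Genes of the rapid wound and defence response, whose products are mostly transcription factors and signalling proteins made within minutes of touch or injury, also went down. Of 16 tested members 8 fell, 3 rose and 5 were not called, and the median over the 25 past the filter was -1.28. Without centring 1 fell and 2 rose, with a median of -0.67, and with groups centred but not libraries 2 fell and none rose. ZAT12, a zinc finger factor of oxidative stress, had 23.3, 72.7 and 58.8 RPKM in 2HS and 13.1, 18.22 and 14.4 RPKM in 1R (-2.24 ± 0.26, limma adjusted p = 4.11e-06). CBF2, a cold-response factor, went from 1.74, 10.6 and 6.10 RPKM to 1.03, 1.07 and 0.678 RPKM (-2.35 ± 0.23, limma adjusted p = 4.39e-07). Neither overlapped between groups, and both lay near or above the 2NS means of 4.32 and 0.322 RPKM.

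ERF5 (-2.09) and WRKY33 (-1.95), factors of ethylene and fungal defence, fell too, with limma adjusted p of 1.39e-06 and 3.45e-06, although the low 2HS library brought their RPKM ranges into overlap with 1R. Untested members lower in the authors' means included SZF1 (57.7 and 19.4 RPKM in 2HS and 1R) and ERF4 (72.1 and 26.2 RPKM). WRKY18, which restrains basal defence, went against the list, from 0.635, 4.51 and 2.53 RPKM to 8.25, 17.3 and 7.29 RPKM (1.14 ± 0.23, limma adjusted p = 0.00168). So did CAF1a (0.98, adjusted p = 5.95e-05) and CAF1b (0.62, adjusted p = 0.0325), deadenylases that shorten poly(A) tails. CAF1b lost the call without the libraries of 15.30, 10.85, 15.22 or 20.96 M reads (highest adjusted p = 0.166). In RPKM before centring, where most genes stood higher in 1R, the groups overlapped in none of these 3.

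The largest single rises were in heat shock genes. Of 31 past the filter 15 were tested, of which 10 rose, 3 fell and 2 were not called, against 7.62% of all tested genes rising. All 16 untested members were at least 2-fold higher in the authors' means, and the median of the list was 2.18. The small heat shock proteins, which hold unfolding proteins until larger chaperones refold them, led. HSP17.4 had 0.546, 0.766 and 0.959 RPKM in 2HS and 53.8, 51.2 and 16.2 RPKM in 1R, a change of 3.71 ± 0.39 (limma adjusted p = 1.22e-06) and the largest rise among tested genes. ATHSP22.0, of the endomembrane system, had 1.19, 0.486 and 1.39 RPKM in 2HS and 42.6, 43.8 and 11.2 RPKM in 1R (3.18 ± 0.45, limma adjusted p = 4.38e-05). HSP18.2 had 0.168, 0.514 and 0.668 RPKM in 2HS and 29.6, 23.9 and 5.22 RPKM in 1R (2.87 ± 0.40, limma adjusted p = 3.30e-05).

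In all 3 genes each 1R library lay above every 2HS library, and the 1R library of 20.96 M reads was the lowest of its group. Without that library the changes were 4.25, 3.79 and 3.58, in the same order. Untested small heat shock genes had larger differences in the means. AT1G53540 went from 1.49 RPKM in 2HS to 112 RPKM in 1R (4.89), HSP23.6-MITO, of mitochondria, from 0.510 to 48.5 RPKM (4.42) and HSP17.6II from 1.64 to 80.7 RPKM (4.34). The 2NS means of these genes were 0.354, 0.293 and 0.269 RPKM, so each stood low in air and at the end of hypoxia. HSP17.6A (3.67), AT2G29500 (3.64), AT1G07400 (3.46), AT5G51440 (3.46) and Hsp70b (3.18) were the other genes among the 8 largest untested rises, all of them chaperone genes.

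The larger chaperones followed. HSP101, a disaggregase, stood at 3.32 RPKM in 2HS and 29.0 RPKM in 1R in the authors' means (2.18) and HSP90.1 at 3.65 and 56.1 RPKM (3.00). Among tested members HSA32 (1.94 ± 0.21, limma adjusted p = 2.22e-06), HSP70T-2 (1.84 ± 0.27, adjusted p = 5.57e-05) and Fes1A (1.75 ± 0.18, adjusted p = 1.13e-06), genes of thermotolerance and HSP70 function, rose. HSFA2, the heat shock factor that sustains their expression, had 0.529, 1.52 and 0.995 RPKM in 2HS and 7.56, 7.18 and 3.63 RPKM in 1R, without overlap. Its rise of 1.12 ± 0.32 passed the test (limma adjusted p = 0.0207) and missed it in 4 of the 6 fits that left out 1 library, those of 13.93 and 15.30 M reads in 2HS (adjusted p = 0.0741 and 0.0771) and of 10.85 and 15.22 M reads in 1R (0.160 and 0.0593).

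Against the list, 3 transcription factor genes fell: DREB2A (-1.21 ± 0.26, limma adjusted p = 0.00320), of drought and heat, and the class B heat shock factors HSFB2A (-1.14 ± 0.18, adjusted p = 1.14e-04) and AT-HSFB2B (-0.84 ± 0.19, adjusted p = 0.00467), known as repressors. DREB2A stood at 8.14 RPKM in 2HS and 5.15 RPKM in 1R against 0.667 RPKM in 2NS, and HSFB2A at 7.59, 4.53 and 1.97 RPKM in that order. The RPKM values of all 3 overlapped between 1R and 2HS, and without centring, or with groups centred but not libraries, none of the 3 was called while 10 and 6 members rose. Chaperones of the endoplasmic reticulum, the unfolded protein response, gave 1 rise among 3 tested genes, ATERDJ3B (0.46, limma adjusted p = 0.0180). Of all tested genes 7.62% rose, and 1 call is not read as a result about this list. The list median was 0.30 and no member was 2-fold apart. ATERDJ3B lost the call without centring and without the libraries of 13.93, 15.30, 10.85 or 15.22 M reads (highest adjusted p = 0.0958).

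**Figure D3:**
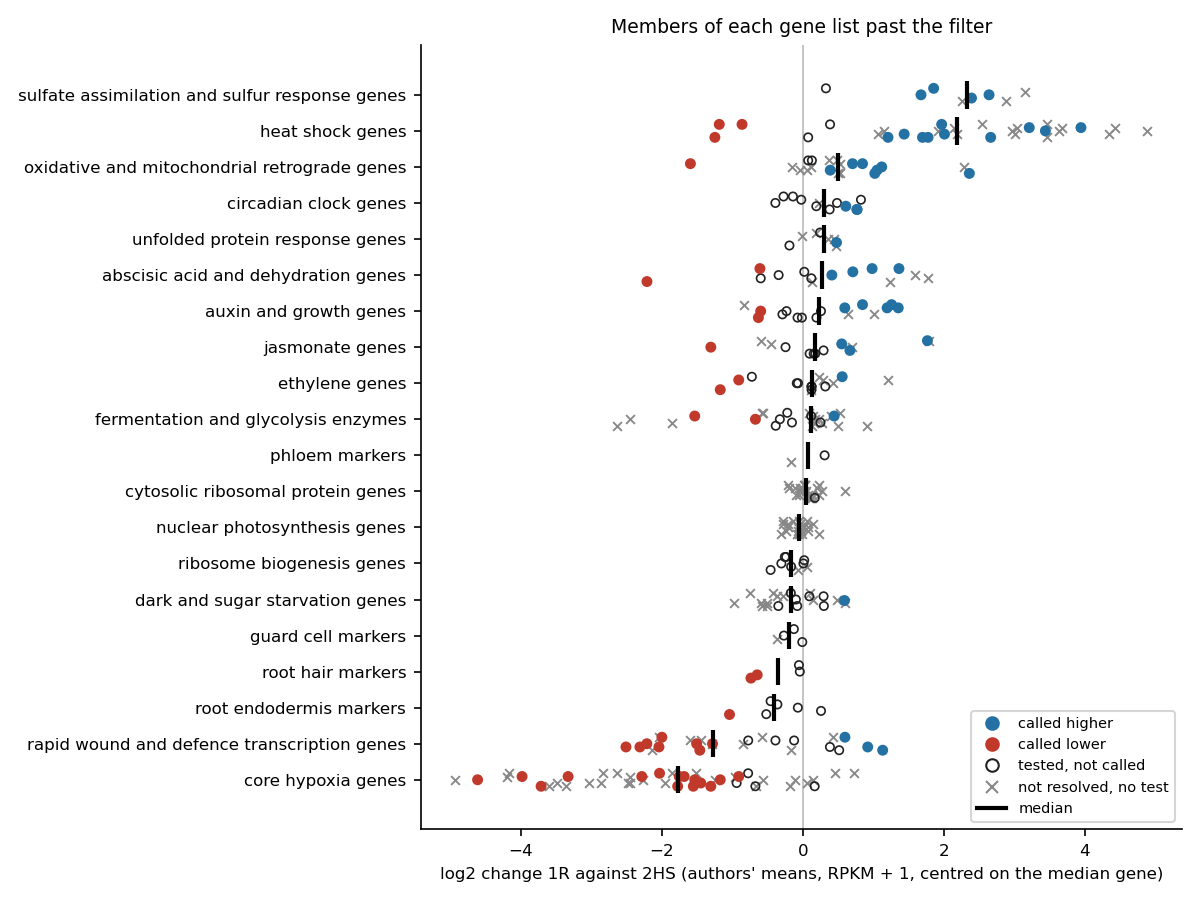
Centred log2 change of 1R against 2HS from the deposited means, for each member past the filter of 20 gene lists, ordered by list median (black bar). Filled points were called by limma (blue higher, red lower), open points were tested and not called, and crosses could not be tested. Core hypoxia genes (median -1.76) and wound and defence genes (-1.28) lie left of 0, heat shock (2.18) and sulfur genes (2.32) right of it, and the other medians lie between -0.41 and 0.49.

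Sulfur genes rose with a similar median. Plants take up sulfate, reduce it through APS reductase (APR) and build cysteine and the antioxidant glutathione from it; LSU and SDI genes are known markers of sulfur shortage. Of 8 members past the filter 5 were tested, 4 rose and 1 was not called, and the list median was 2.32. LSU2 had 0.398, 2.97 and 2.46 RPKM in 2HS and 16.6, 48.0 and 16.7 RPKM in 1R (2.53 ± 0.32, limma adjusted p = 1.10e-05). LSU1 had 0, 0.834 and 1.14 RPKM in 2HS and 7.49, 21.9 and 7.58 RPKM in 1R (2.23 ± 0.22, limma adjusted p = 4.54e-07). LSU3, outside the list, had 0.330, 0.482 and 2.11 RPKM in 2HS and 17.1, 51.0 and 14.5 RPKM in 1R (3.06 ± 0.32, limma adjusted p = 1.02e-06).

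No 1R library overlapped 2HS in these genes, and in each of them the 1R library of 15.22 M reads was the highest. Without that library the changes were 2.2 for LSU2, 1.92 for LSU1 and 2.68 for LSU3, all still called. ATSDI1 (1.61 ± 0.32, limma adjusted p = 0.00135) and APR2 (1.62 ± 0.17, adjusted p = 1.64e-06) rose as well. The untested reductase genes APR1 and APR3 stood at 2.58 and 9.30 RPKM in 2HS and at 47.9 and 115 RPKM in 1R (3.16 and 2.88), and SHM7, a serine hydroxymethyltransferase gene, at 2.55 and 25.0 RPKM (2.26). In 2NS the means of APR1, APR3 and SHM7 were 6.05, 13.5 and 2.86 RPKM, each above 2HS and below 1R. The sulfate transporter gene SULTR1;2 was not called (0.29, limma adjusted p = 0.231).

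**Figure D4:**
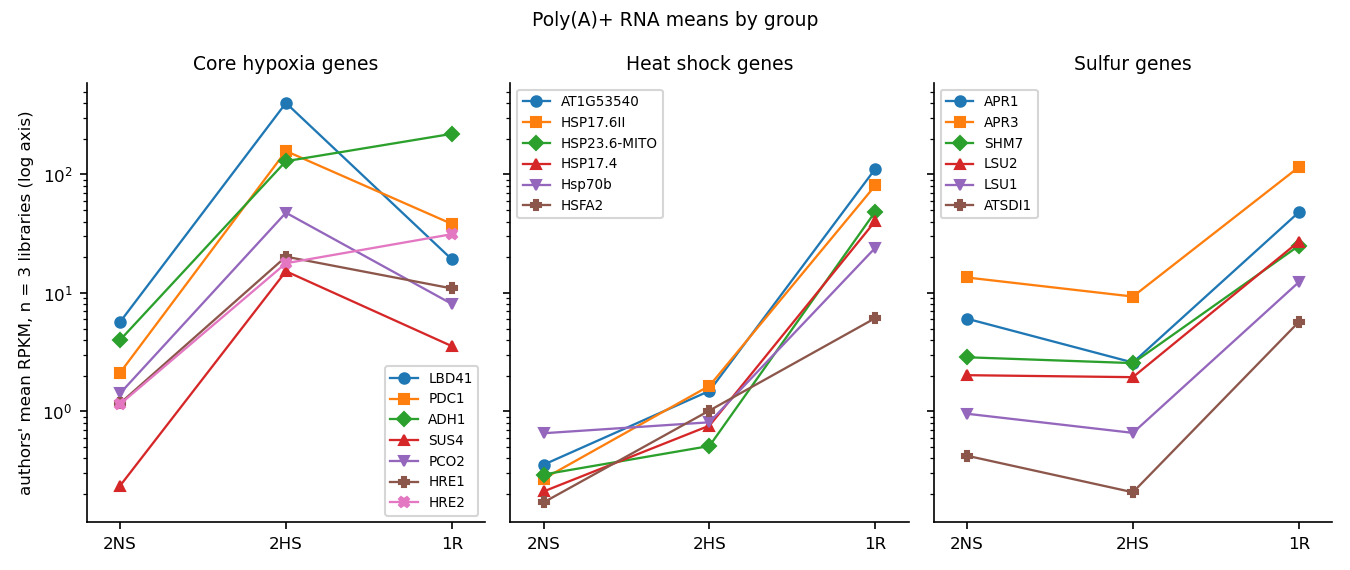
Authors' mean RPKM over 3 libraries on a log axis in 2NS, 2HS and 1R for genes of 3 lists, without error since only means were deposited for the abundant genes. Values are not centred, and the median gene lay 0.61 higher in 1R than in 2HS on the log2 scale. Most core hypoxia genes peak in 2HS, for example LBD41 at 401 RPKM, whereas ADH1 and HRE2 are highest in 1R. After centring, HRE2 was not called against 2HS, and ADH1, untested, lay within 2-fold of it. Heat shock and sulfur genes reach their highest means in 1R, with AT1G53540 at 112 RPKM and APR1 at 47.9 RPKM.

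Genes that answer reactive oxygen and disturbed mitochondria mostly went up, by less. Of 10 tested members 7 rose, 1 fell and 2 were not called, with a median of 0.49 over the 20 past the filter. Without centring 3 rose and none fell, and with 1 library left out 4 to 6 rose, 4 of them without the 2HS library of 15.30 M reads or the 1R library of 20.96 M reads. AT2G21640, a marker of oxidative stress and mitochondrial retrograde signalling, had 0.6, 0.946 and 0.670 RPKM in 2HS and 10.3, 18.4 and 9.33 RPKM in 1R, without overlap (2.24 ± 0.32, limma adjusted p = 4.52e-05). AOX1A, the alternative oxidase that passes electrons to oxygen past the cytochrome path, stood at 10.0 RPKM in 2NS, 6.15 RPKM in 2HS and 52.5 RPKM in 1R in the authors' means (2.29 against 2HS). The glutathione transferase genes GSTU25 (1.17, limma adjusted p = 0.00203) and GSTU1 (1.02, adjusted p = 1.79e-04) and the glucosyltransferase gene UGT74E2 (1.03, adjusted p = 0.0242) rose, the last not without the libraries of 13.93, 15.30 or 20.96 M reads (highest adjusted p = 0.114). WRKY75 fell (-1.59 ± 0.25, limma adjusted p = 1.33e-04). The main antioxidant enzyme genes were close to the median gene in the means, with CAT2 at 0.06, CSD1 at -0.04 and APX1 at 0.49; CAT1 was tested and not called (0.04, limma adjusted p = 0.907).

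Water-stress genes gave 4 rises and 2 falls among 10 tested. With 1 library left out 2 or 3 rose, 2 of them without the libraries of 13.93, 15.30 or 10.85 M reads, and 1 or 2 fell; without centring 2 rose and 1 fell. KIN1, a cold and abscisic acid marker, had 0.590, 5.30 and 2.36 RPKM in 2HS and 10.6, 17.5 and 13.2 RPKM in 1R (1.49 ± 0.18, limma adjusted p = 8.10e-06), and LTI78, also known as RD29A, rose too (0.97, adjusted p = 6.30e-05); neither overlapped. Untested members of the list that were higher in the authors' means were KIN2 (30.1 and 161 RPKM in 2HS and 1R, 1.77), ERD10 (21.7 and 104 RPKM, 1.59) and COR47 (54.1 and 197 RPKM, 1.23). CYP707A3, which breaks down abscisic acid, fell from 3.16, 9.86 and 6.01 RPKM to 0.925, 2.03 and 1.32 RPKM (-2.2 ± 0.26, limma adjusted p = 4.59e-06). PYL6, an abscisic acid receptor gene outside the list, rose from 0.408, 1.07 and 0.732 RPKM to 11.5, 23.8 and 21.3 RPKM (2.79 ± 0.22, limma adjusted p = 5.04e-08). P5CS1, for proline synthesis, was called lower (-0.62, limma adjusted p = 0.0236), with 2.09 RPKM in 2HS and 2.1 RPKM in 1R. P5CS1 lost the call without the libraries of 12.21, 15.30, 15.22 or 20.96 M reads (highest adjusted p = 0.110) and turns to 0.06 without centring.

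The jasmonate, ethylene and auxin lists each held calls in both directions, against 7.62% of all tested genes rising and 7.33% falling. The single fall among jasmonate genes and the single rise among ethylene genes are not read as results about these lists. AOC1, allene oxide cyclase of jasmonate synthesis, went from 0.368, 2.39 and 2.64 RPKM to 12.3, 19.1 and 9.33 RPKM (1.77 ± 0.19, limma adjusted p = 1.56e-06), AOC3 rose (0.67, adjusted p = 0.00440) and the repressor gene JAZ3, a core hypoxia member, fell (-1.25 ± 0.16, adjusted p = 1.26e-05); in all 3 of 9 tested jasmonate genes rose and 1 fell, and without centring 1 rose and none fell. Of 10 tested ethylene genes, the receptor ETR2 (-1.13 ± 0.14, limma adjusted p = 9.91e-06) and the oxidase ACO1 encoded by AT2G19590 (-0.82, adjusted p = 0.00316) fell, both induced by hypoxia. The receptor ERS1 rose (0.50, limma adjusted p = 0.0397), against 7.62% of all tested genes rising. ERS1 kept the call in 1 of the 6 fits with a library left out, that without the 1R library of 10.85 M reads (highest adjusted p = 0.190), and no ethylene gene was called without centring. EBF2, an F-box gene that EIN3 induces to limit ethylene signalling, stood at 7.82 RPKM in 2HS and 30.2 RPKM in 1R in the means (1.21). Early auxin genes were among the 5 rises in 13 tested auxin and growth genes: IAA29 (1.20, limma adjusted p = 0.00524), IAA1 (1.20, adjusted p = 0.00170), GH3.3 (1.16, adjusted p = 0.00113) and IAA19 (0.78, adjusted p = 0.00610). IAA14 (-0.57, adjusted p = 0.00938) and HFR1 (-0.68, adjusted p = 0.0300) were called lower while their group means were nearly level, at 2.63 and 2.67 RPKM and at 0.870 and 0.847 RPKM in 2HS and 1R; IAA14 lost the call without the library of 15.22 M reads and HFR1 without that of 12.21, 15.30, 15.22 or 20.96 M reads (highest adjusted p = 0.0743 and 0.151). IAA14 turns to 0.11 without centring, where 3 members of the list rose and none fell.

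Clock genes, whose transcripts vary with the hour, gave 3 rises and no fall among 11 tested: TOC1, an evening gene, from 1.35, 4.04 and 4.06 RPKM to 8.53, 11.8 and 9.02 RPKM (0.77 ± 0.15, limma adjusted p = 8.60e-04), the morning gene LHY (0.68, adjusted p = 0.0138) and ELF4 of the evening complex (0.67, adjusted p = 0.0289). LHY lost the call without the libraries of 13.93, 15.30, 10.85 or 15.22 M reads and ELF4 without those of 12.21, 10.85, 15.22 or 20.96 M reads (highest adjusted p = 0.0742 and 0.122), and without centring 1 clock gene rose. CCA1, close relative of LHY, did not pass (0.71, limma adjusted p = 0.0831). None of the 11 was called against 2NS, where TOC1 differed by 0.25, LHY by 0.09 and ELF4 by 0.24. Dark and sugar starvation genes gave 1 rise, TPS11 (0.68, limma adjusted p = 0.0122), among 8 tested, against 7.62% of all tested genes rising. TPS11 was not called without the libraries of 12.21 or 10.85 M reads (highest limma adjusted p = 0.0833) or without centring. The list's median was -0.17, and 0.44 without centring. DIN10, a raffinose-family gene of that list, stood at 151 RPKM in 2HS and 117 RPKM in 1R (-0.98 in the means). 

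Genes of photosynthesis and translation stayed close to the median gene. The 22 nuclear photosynthesis genes were too abundant to test and had a median of -0.05, none of them 2-fold apart. Genes for cytosolic ribosomal proteins had 0.04 over 25 members and the ribosome biogenesis genes -0.17 over 9, with no call among 1 and 7 tested. Without centring these medians become 0.56, 0.66 and 0.45, so their direction is relative to the median gene only. In bulk RNA of whole seedlings, fewer cells of a type and less RNA per cell cannot be told apart.

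Markers of root hair, endodermis, guard cell and phloem were all above 0 RPKM in every group. Their summed means in 2NS, 2HS and 1R were 8.84, 5.33 and 6.80 RPKM for 6 root hair markers and 15.5, 20.4 and 28.4 RPKM for 6 endodermis markers. For 5 guard cell markers they were 58.3, 92.6 and 113 RPKM, and for 2 phloem markers 21.2, 18.22 and 27 RPKM. After centring, the root hair genes LRX1 (-0.79, limma adjusted p = 0.0356) and PRP3 (-0.59, adjusted p = 0.0293) and the endodermis factor gene MYB36 (-1.06, adjusted p = 0.00537) were called lower and no marker higher; all 3 overlapped in RPKM, and none was called without centring. LRX1 lost the call without the libraries of 12.21, 15.30, 10.85 or 15.22 M reads and PRP3 without those of 13.93, 15.30, 10.85 or 15.22 M reads (highest adjusted p = 0.161 and 0.150), and PRP3 turns to 0.0901 without centring. Whether cell composition has a part in the changes above was not tested.

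The control 2NS shows where each group of genes stood against air. It shares the 1R libraries with the comparison above, so both are given side by side and no overlap is drawn from them. Against 2NS, 829 of 10394 tested genes were higher in 1R (7.98%) and 1013 lower (9.75%). Of 34 core hypoxia genes tested 18 were higher and none lower, with a median of 0.91 in 1R against 2NS and 2.95 in 2HS against 2NS. The wound and defence list had medians of 0.64 and 1.95 in the same order, with 8 of 21 tested genes above 2NS. For heat shock genes the medians were 2.65 and 0.53, and 13 of 15 tested members lay above 2NS. Sulfur genes had a median of 1.90 in 1R and -0.49 in 2HS, each against 2NS.

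HRE2 binding was deposited as a list of 4721 peaks from seedlings overexpressing a stabilised, tagged HRE2. These seedlings were harvested after 2 h of hypoxia in darkness. Binding was thus measured neither in air nor in reoxygenated plants of the line used for poly(A)+ RNA. A peak lay within 1000 bases of the start of 33 of 46 core hypoxia genes past the filter (71.7%), compared with 15.4% of all 12988 genes. Shares were 36.5% for genes at least 2-fold lower in 1R and 23.0% for those at least 2-fold higher. The lower set includes 32 of the 46 core hypoxia genes, so its share is not separate from theirs. By limma, shares were 20.8% for genes called lower and 18.6% for those called higher, against 14.3% of all tested genes. Among heat shock genes 2 of 31 (6.45%) had one. Negative distances lie before a start: PCO1 had a peak at chr5:4898554-4898709 (TAIR10), centred -10 bases from its start, ZAT12 at chr5:24102735-24102890 (-2 bases), and LBD41, the nearer of 2, at chr3:537809-537964 (240 bases). PDC1, AT4G10265 and HSP17.4 had none within that distance. A peak near a start is a position only, and peak scores were 0 throughout the list.

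Nuclear RNA of the same line and conditions, from purified nuclei with 3 libraries a group, was set beside poly(A)+ RNA to see where the 2 pools moved apart. Nuclear libraries ranged from 1.05 to 8.84 M reads in 1R and from 2.117 to 16.61 M in 2HS, and 95 genes rose (0.585% of 16232 tested) and 127 fell (0.782%). Core hypoxia genes were lower in both pools, with a nuclear median of -2.39, and sulfur genes were higher in both, with a nuclear median of 2.39. APR1 had 1.58 RPKM in nuclei of 2HS and 49.6 RPKM in those of 1R. Heat shock genes had opposite medians, -0.92 in nuclei and 2.16 in poly(A)+ RNA over the same 30 genes. HSFA2 fell in nuclei from 14.1 to 1.47 RPKM while its poly(A)+ mean went from 1.02 to 6.12 RPKM.

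The difference between the pools was itself tested by the interaction in limma, over 9719 genes. The change was larger in poly(A)+ than in nuclear RNA for 24 genes (0.247%) and smaller for 20 (0.206%). Among heat shock genes, HSFA2 (4.2 ± 0.69, limma adjusted p = 0.00444), ATHSP22.0 (5.18 ± 0.97, adjusted p = 0.0159) and HSP70T-2 (3.25 ± 0.74, adjusted p = 0.0398) were called, and kept the call in 12, 9 and 5 of 12 fits with 1 library left out. Of the heat shock genes 13 could enter this test, and none was called lower; the reads of most small heat shock genes were not recovered in 1R. Ribosome-bound RNA (TRAP) was measured after 2 h of reoxygenation, in another line, p35S:RPL18-FLAG, so its means are only set alongside. There, 2R against 2HS, the median was -3.44 for core hypoxia genes, 0.32 for heat shock genes and 1.55 for sulfur genes.

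**Figure D5:**
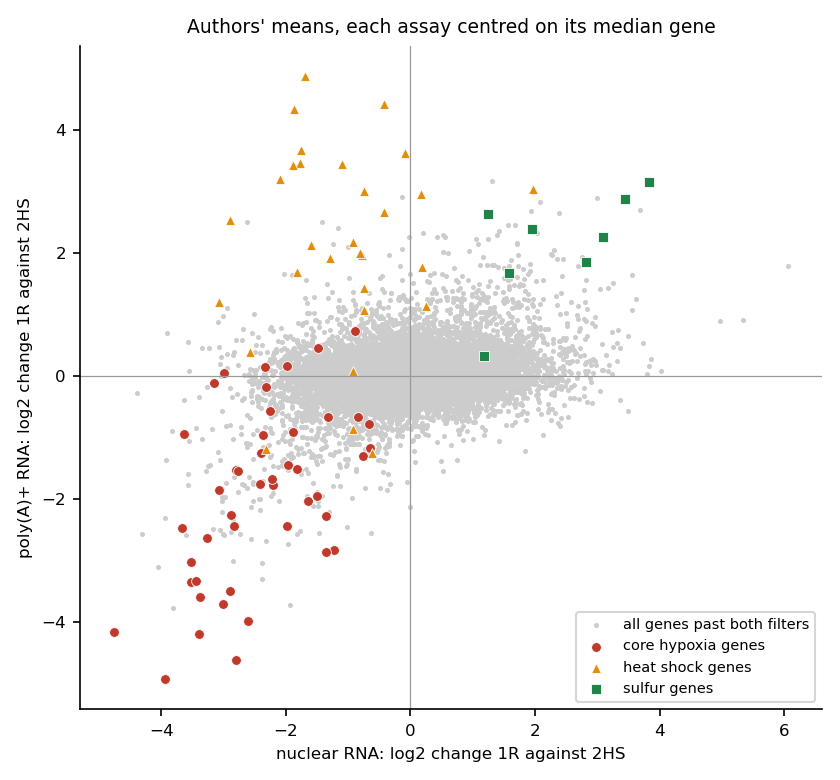
Log2 change of 1R against 2HS in poly(A)+ RNA (vertical) against that in nuclear RNA (horizontal), both from the authors' means and centred on their own median gene, 1 grey point per gene past both filters. Core hypoxia genes (red circles) lie mostly at the lower left and sulfur genes (green squares) at the upper right, while many heat shock genes (orange triangles) lie above 0 on the vertical axis and below 0 on the horizontal one.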

How the data were processed

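Oligo(dT)-selected RNA of whole seedlings was sequenced from random-hexamer libraries, per the labels' protocols. The submitters' processing notes name Bowtie2, TopHat2, HOMER and the TAIR10 genome, with no version or role; no source here names the counter, the strandedness or the reads counted as a library's total, so overlapping, antisense and near-identical genes are uncertain. The authors deposited 1 table of RPKM in which each column is the mean of a group's 3 libraries; 13 of its 30 value columns were used and 17 were not. The authors' HRE2 peak list gives each peak's distance to a start site, per the file headers.

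A mean of whole reads over known lengths takes only certain values. Gene lengths from RefSeq and the deposited digits fixed each library's total, and for most genes its reads; recovered libraries carry no replicate number. Genes with several solutions, and those not searched because more than 4 were expected by arithmetic alone, were left untested. limma 3.58.1 in R 4.3.3 was fitted to log2(RPKM + 1), each library centred on its median gene, with all 5 poly(A)+ groups in 1 fit, a variance trend and Benjamini-Hochberg adjustment over all genes tested. Groups not resolved for a gene were dropped from its fit, which left 6 to 10 residual degrees of freedom. The pseudocount of 1 RPKM understates changes of low genes. The recovery and the test were tested on simulated data with Python 3.11.15. No gene list was tested as a set. Counting error alone bounds the precision of single libraries.

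Genes named in the text were the 12 largest rises and falls among called genes, the 8 largest of each among untested genes, up to 6 members of each list with those going against it, group VII ERF and PCO genes, and the 4 largest differences between assays in each direction; ADH1, HB1, AT3G03270, GAPC1, HSP101, HSP90.1, HSA32, HSP70T-2, Fes1A, APR2, SULTR1;2, PFK7 and the enzyme genes CAT1, CAT2, CSD1 and APX1 were added after their values were seen. Members and lists were chosen with earlier results of these data known.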

Additional observations from a re-analysis of the deposited data

Results flagged for a closer look

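The results below were singled out because the change from 2HS to 1R differed between poly(A)+ and nuclear RNA by limma's test of that difference over 9719 genes. The difference was positive for 24 genes and negative for 20 at an adjusted p of 0.05.

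AT1G15010 differed most, by 5.2 ± 0.82 on the log2 scale (limma adjusted p = 0.00300). Its mean went from 3.24 to 35.6 RPKM in poly(A)+ RNA and from 9.58 to 1.36 RPKM in nuclear RNA. ATHSP22.0 differed by 5.18 (adjusted p = 0.0159), HSFA2 by 4.2 (adjusted p = 0.00444) and AT1G66080 by 4.17 (adjusted p = 0.00300). All 4 were higher in poly(A)+ and lower in nuclear RNA in 1R. In poly(A)+ RNA alone, AT1G66080 rose by 0.56 (limma adjusted p = 0.0387). With 1 library left out, its rise was called in 1 of 6 fits and that of HSFA2 in 2 of 6. In the opposite direction AT3G17710 differed by -2.85 (limma adjusted p = 0.0329), AT2G46100 by -2.77 (0.0329), AT1G33470 by -2.74 (0.0419) and UNE10, a phytochrome-interacting bHLH factor gene, by -2.26 (0.0159). Nuclear UNE10 went from 1.79 to 19.3 RPKM, while its poly(A)+ mean went from 1.91 to 3.85 RPKM. Leaving out 1 library at a time kept the call in 12 of 12 fits for AT1G15010, HSFA2 and AT1G66080, in 9 for ATHSP22.0 and UNE10, and in 5, 4 and 2 for AT2G46100, AT3G17710 and AT1G33470. Nuclear libraries of 1R and 2HS differ widely in depth, and the part of depth in these differences was not tested.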

How the results depend on the processing

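Among limma's values for the named genes, 1222 alternatives kept direction and side of the threshold, 170 lost the call, 17 gained it and 5 reversed: without centring HXK2 came to 0.08, P5CS1 to 0.0627, PRP3 to 0.0901 and IAA14 to 0.11, and without the filter IAA14 came to 0.01455. Counts below give higher, then lower. The authors' means gave 344 and 263 genes 2-fold apart. They gave 611 and 414 with a pseudocount of 0.1 RPKM, 174 and 97 with 5 RPKM, 1350 and 120 without the filter, 171 and 156 with a minimum of 5 RPKM, and 1733 and 98 without centring. limma's counts of 795 and 764 became 767 and 174 without the filter, 241 and 264 with a minimum of 5 RPKM, and 287 and 19 without centring. They became 742 and 502 with groups rescaled to the same protein-coding total, 1324 and 1209 with limma voom on the recovered reads, and 52 and 40 with groups centred but not libraries, an alternative chosen after seeing the data. Leaving out 1 library gave 528 to 745 higher and 444 to 649 lower, both lowest without the 1R library of 15.22 M reads. Against 2NS the counts of 829 and 1013 became 410 and 1 without centring, and 487 to 645 and 477 to 779 with 1 library left out, lowest without the same library. The difference between assays, 24 and 20, gave 67 and 60 when rescaled and 8 and 6 with a pseudocount of 0.1 RPKM. With 1 library left out it gave 4 to 419 and 0 to 323, highest without the nuclear 1R library of 8.84 M reads; without the nuclear 2HS library of 16.61 M reads it gave 84 and 206. The causes were not tested. No paired analysis was possible because the recovered libraries carry no replicate number. Depth limits genes of few reads, and abundant genes carry no test.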

Other observations

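Most of the 12 largest tested rises belong to genes outside the lists, LSU3 and PYL6 above among them. AT5G20790 had 0.723, 3.11 and 4.46 RPKM in 2HS and 32.5, 54.1 and 40.2 RPKM in 1R (2.97 ± 0.22, limma adjusted p = 2.89e-08), while its nuclear mean was 2.61 RPKM in 2HS and 3.55 RPKM in 1R. AT5G62360 (2.79), AT3G06070 (2.64), AT5G62280 (2.64), AT2G17660 (2.52) and AT1G15010 (2.48) rose as well, and the libraries of 1R and 2HS did not overlap in any of these genes. AT3G06070 and AT5G62280 had 2.51 and 3.12 RPKM in 2NS and 0.563 and 1.54 RPKM in 2HS, so both stood below air in hypoxia and above it, at 14.1 and 24.0 RPKM, in 1R. GAT1_2.1, a glutamine amidotransferase gene and one of the 12 largest falls, went from 8.71 to 1.53 RPKM in poly(A)+ RNA, against 6.35 and 5.52 RPKM in nuclear RNA.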
